A study of Homo sapiens with 8 samples.

Results

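Transforming growth factor beta (TGF-beta), bone morphogenetic protein (BMP), activin and growth differentiation factor 15 (GDF15) belong to 1 superfamily of secreted signals. Their mRNAs were followed here in MCF10A cells with and without p53 after DNA damage. The 10 genes were chosen by name, with earlier results of these data known: the ligands TGFB1, TGFB2, TGFB3, INHBA, BMP2, BMP4 and GDF15, the receptor TGFBR2, and the inhibitors SMAD7 and FST. All 10 of the 10 were matched to a probe by transcript accession or symbol, among 20296 genes that the array names. Each had 1 probe, printed in 10 spots for TGFB1, INHBA and FST and in 2 spots for the other 7 genes. All 10 were well above background on at least 1 array and 7 on all 8 arrays, the others being TGFB2, TGFB3 and BMP4.

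MCF10A is a line of human breast epithelial cells that does not form tumours. Cells labelled p53+/+ and cells labelled p53−/− were left untreated and harvested at 0 h, or were given 0.5 µg/ml of doxorubicin, also called adriamycin (ADR), for 2 h and harvested at 12, 24 or 48 h. The dose is that of the labels, and the study's methods for these arrays give a higher one. There was 1 single-colour Agilent array for each genotype and time, 8 arrays in all, so no single value has a replicate error. The labels do not say how the p53−/− line was made or whether it was 1 clone, and genotype differences cannot be told apart from differences between the 2 cultures.

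In the textbook account, ligands of this family bind pairs of type I and type II receptor kinases, which phosphorylate SMAD proteins that enter the nucleus with SMAD4 and regulate transcription. TGF-beta and activin act mainly through SMAD2 and SMAD3, and BMPs through SMAD1, SMAD5 and SMAD9. In mammary epithelium TGF-beta restrains proliferation and can promote loss of epithelial features. GDF15 is a distant member, induced by many stresses and long known as a p53 target, which signals through GFRAL in the hindbrain.

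Levels are log2 processed signals (the spot intensity after the scanner software's background correction) relative to the 75th percentile of their array. The label of 1 array is in doubt, and it is called the array labelled p53+/+ 0 h throughout. CDH1, the epithelial cadherin, read −3.13 on it, near the −3.55 of the p53−/− 0 h array and below the 1.42 to 2.10 of treated p53+/+ cells. CDKN1A, a p53 target, had a level of −1.14 on it and −2.97 on the p53−/− 0 h array, against 2.54, 2.63 and 2.70 in treated p53+/+ cells and −0.96, −0.64 and −0.48 in treated p53−/− cells. For this reason the genotypes were compared mainly on the treated arrays, which needs no 0 h array, and changes in p53+/+ cells are given from both 0 h arrays.

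The arrays' 75th percentiles ranged from 661 to 1199, and 49.8 to 62.9% of probes were well above background. All arrays lay on 1 slide with each genotype in a column of its own, so genotype and place on the slide cannot be told apart. The spike-in transcripts, 6 of 10 of which were well above background on 7 arrays, were not on the p53+/+ 48 h array (0 of 10). In bulk RNA, fewer cells of a type and less RNA per cell cannot be told apart. Of 10 markers of basal mammary epithelial cells, 9 passed the background criterion on every array, and 7 were higher in treated p53+/+ than in treated p53−/− cells by limma (none was lower). Of the hormone-sensing luminal markers, PGR was well above background on no array and ESR1 on 7 of 8, at levels between −5.22 and −4.00. Their summed linear level was 0.0584, 0.0498 and 0.0718 times the 75th percentile in treated p53+/+ cells and 0.0320, 0.0492 and 0.0374 in treated p53−/− cells.

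Treated p53+/+ and treated p53−/− cells differed in GDF15, TGFB2 and BMP4. Taken as differences of treated means, GDF15 was 159-fold higher in p53+/+ cells, TGFB2 at least 8.93-fold lower and BMP4 3.81-fold lower. Of the 3 treated p53+/+ arrays, 1 measured TGFB2 well above background and 2 measured BMP4. These were the 3 of 10 genes past a Benjamini-Hochberg adjusted p of 0.05 in a limma fit over 28947 probes. The same fit called 18.0% of all probes, of which 58.8% were higher in p53+/+ cells (48.3% with quantile normalization, 45.7% with median scaling, 47.9% with normexp and quantile normalization and 14.5% without scaling). The median difference of the 10 genes was −0.19 on the log2 scale, beside 0.09 over all probes tested. In this fit the 3 treated times stand in for replicates, so a p sets a difference against the movement over time and not against that between cultures.

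The 250 bases before the RefSeq start sites of these 3 genes are shown because they are the sequences next to the transcripts that differed. The coordinates are those of GRCh38.p14: chr19:18385908-18386157 on the + strand for GDF15, chr1:218345086-218345335 on the + strand for TGFB2, and chr14:53955051-53955300 on the − strand for BMP4, the outermost of its 3 starts. Capitals mark 2 motifs, TATAAA (the TATA box) and CAGACA (a motif bound by SMADs).
GDF15: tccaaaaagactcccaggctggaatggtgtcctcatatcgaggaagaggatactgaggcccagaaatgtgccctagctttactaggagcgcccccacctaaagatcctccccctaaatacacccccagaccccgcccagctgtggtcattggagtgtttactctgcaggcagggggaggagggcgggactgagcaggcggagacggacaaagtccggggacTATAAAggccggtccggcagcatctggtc
TGFB2: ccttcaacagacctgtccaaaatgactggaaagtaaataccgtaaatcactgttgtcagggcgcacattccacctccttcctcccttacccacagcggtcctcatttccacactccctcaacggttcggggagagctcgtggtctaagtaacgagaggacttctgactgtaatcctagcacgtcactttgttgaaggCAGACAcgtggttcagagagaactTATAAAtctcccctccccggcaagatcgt
BMP4: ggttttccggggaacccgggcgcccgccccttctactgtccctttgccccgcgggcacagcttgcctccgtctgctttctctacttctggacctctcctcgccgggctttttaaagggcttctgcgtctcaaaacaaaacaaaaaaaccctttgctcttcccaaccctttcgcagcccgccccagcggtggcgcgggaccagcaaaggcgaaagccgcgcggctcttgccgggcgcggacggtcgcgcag
GDF15 and TGFB2 both hold TATAAA with its first base 29 bases before the start, and TGFB2 holds CAGACA 53 bases before it. Among the other windows searched, CAGACA was found in that of another BMP4 start (on the opposite strand, 47 bases before it) and in that of INHBA, and TATAAA in windows of INHBA, SMAD7 and TGFB3. Searched on both strands, TATAAA was in 11.5% and CAGACA in 16.9% of 35116 promoter windows of 300 bases (250 before and 50 after the start). The AP-1 motif TGANTCA, in 7.71% of windows, was found in windows of FST and TGFBR2. The p53 consensus decamer, in 6.63% of windows, was found in a window of TGFB3. Both motifs are palindromic there and were read on both strands at 1 place. The windows of GDF15, TGFB2 and BMP4 hold neither, which says only that these letters are not in the stretches searched. Windows were given for 9 of the 10 genes, without BMP2.

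**Figure D1:**
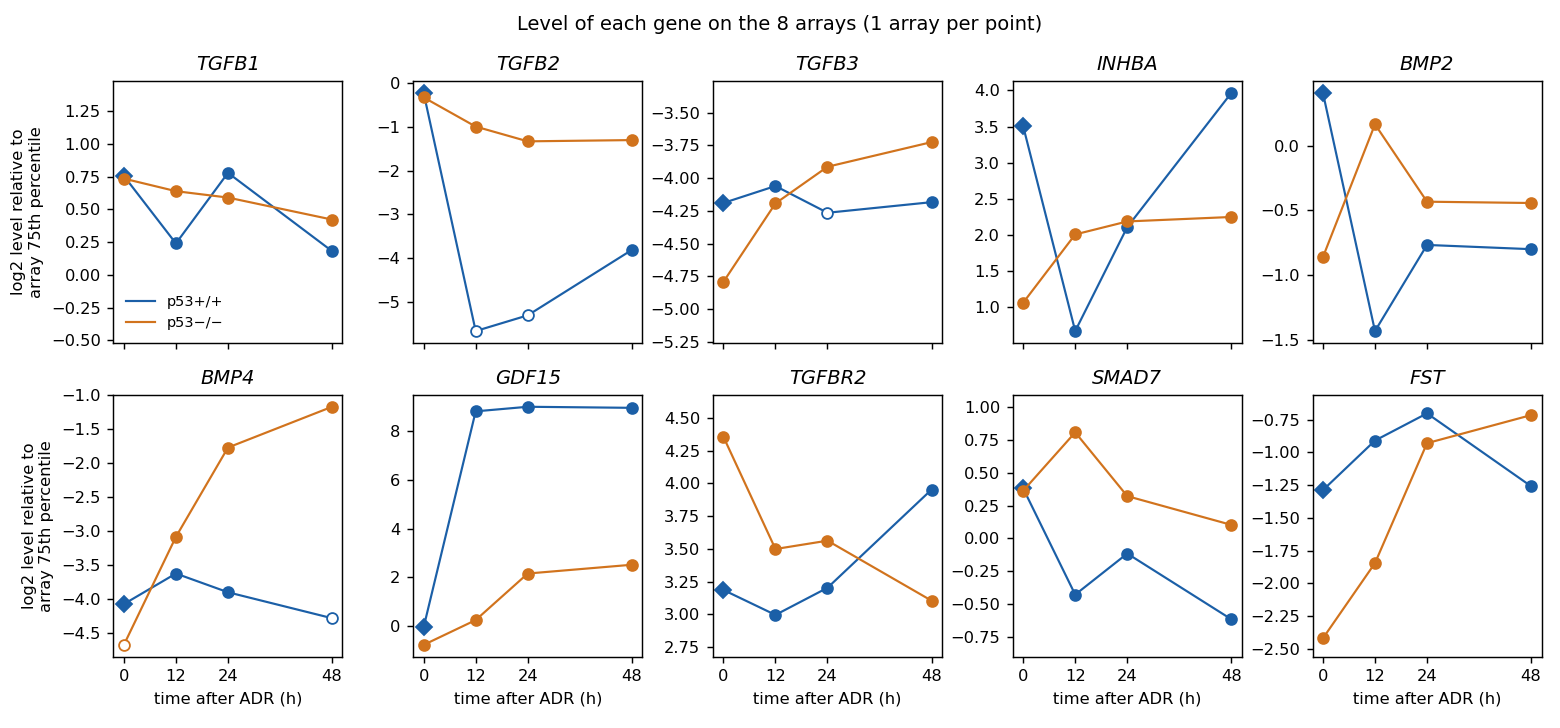
Log2 level of each of the 10 genes relative to the 75th percentile of its array (vertical axis, scaled per gene) against time after ADR in h, with p53+/+ in blue and p53−/− in orange, 1 array per point. Open points were not well above background, and the diamond is the array labelled p53+/+ 0 h. GDF15 in p53+/+ cells sits between 8.83 and 9.02 at the 3 treated times, and TGFB2 between −5.67 and −3.81.

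Among the ligands, GDF15 moved most. Its level (probe for NM_004864) was 8.83, 9.02 and 8.97 at 12, 24 and 48 h in treated p53+/+ cells, and 0.23, 2.15 and 2.51 in treated p53−/− cells. The 0 h arrays labelled p53+/+ and p53−/− gave −0.07 and −0.79. All 3 treated p53+/+ arrays were above all other arrays, and the level there was already as high at 12 h as later, whereas the p53−/− levels were in the order of time. Compared at the same time, p53+/+ cells were 388-, 117- and 88.4-fold higher at 12, 24 and 48 h, with a technical SD of 0.06 to 0.07 on the log2 scale from probes printed in 10 spots, which covers spots of an array only. The limma difference of treated means was 7.31 (standard error 0.57, adjusted p = 0.000913), higher in p53+/+ cells at 3 of 3 times. The adjusted p lay between 0.000115 and 0.0442 over 12 alternatives.

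GDF15 also rose in the cells without p53. The log2 change from the p53−/− 0 h array was 1.02, 2.94 and 3.30, that is 2.03-, 7.67- and 9.86-fold. In p53+/+ cells the change was 478-, 544- and 528-fold from the array labelled p53+/+ 0 h, and 789-, 899- and 872-fold from the p53−/− 0 h array. The interaction of genotype and treatment, the difference between these changes, was 6.59 (standard error 1.15, adjusted p = 0.049996 in limma), and GDF15 was the 1 of 10 genes past the threshold, where 1.69% of all probes passed (55.7% of them higher, and 14.0% without scaling). This value rests on the array labelled p53+/+ 0 h. Over 11 alternatives the estimate lay between 5.78 and 7.01 and 6 kept it past the threshold, among them the table of the whole series, which holds the same values. The adjusted p was 0.286 without the 24 h arrays, 0.0883 without the 48 h arrays and below the threshold without the 12 h arrays.

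TGFB2, 1 of the 3 TGF-beta isoforms, went the other way (probe for NM_003238). Its level was −5.67, −5.31 and −3.81 in treated p53+/+ cells and −0.99, −1.33 and −1.30 in treated p53−/− cells, and −0.22 on the array labelled p53+/+ 0 h and −0.32 on the p53−/− 0 h array. The 3 treated p53+/+ arrays were below the 5 other arrays. The probe was not well above background on the p53+/+ arrays of 12 and 24 h, where its 2 spots differed by up to 1.72 on the log2 scale, so its fold there has only a bound. This bound sets the bright array against the higher of the dim probe's own level and the lowest level well above background on the dim array. TGFB2 was at least 13.8-fold lower in p53+/+ cells at 12 h, at least 9.04-fold lower at 24 h and 5.71-fold lower at 48 h, when both arrays measured it. The limma difference, which takes the dim arrays at their measured level, was −3.73 (standard error 0.48, adjusted p = 0.00451), lower at 3 of 3 times. It was −2.08 with normexp background correction and quantile normalization, still past the threshold, and its adjusted p was 0.103 without the 24 h arrays.

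From the array labelled p53+/+ 0 h, TGFB2 fell at least 23.5-fold by 12 h, at least 19.5-fold by 24 h and 12.1-fold by 48 h. The p53−/− 0 h array read nearly the same level, and from it the log2 change in p53+/+ cells at 48 h was −3.49. In p53−/− cells the change was −0.67, −1.01 and −0.98, of which only that of 24 h reached 2-fold. The interaction was −3.83 (adjusted p = 0.11 in limma).

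TGFB1 and TGFB3 showed no such difference. TGFB1, the most widely studied isoform, read 0.24, 0.78 and 0.18 in treated p53+/+ cells and 0.64, 0.59 and 0.42 in treated p53−/− cells, and 0.76 and 0.74 on the 0 h arrays labelled p53+/+ and p53−/−. The genotypes overlapped, with a limma difference of −0.15 (standard error 0.22, adjusted p = 0.684). TGFB3 read −4.06, −4.26 and −4.18 against −4.19, −3.91 and −3.72, and was not well above background on the p53+/+ 24 h array. Its limma difference was −0.23 (standard error 0.20, adjusted p = 0.470). In p53−/− cells TGFB3 was 2.10-fold above its 0 h array at 48 h, with a technical SD of 0.31 on the log2 scale.

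BMP4, a ligand of the BMP branch, was the third gene that differed (probe for NM_001202). Its level was −3.63, −3.91 and −4.29 in treated p53+/+ cells and −3.09, −1.78 and −1.17 in treated p53−/− cells, with −4.08 on the array labelled p53+/+ 0 h and −4.68 on the p53−/− 0 h array. The treated p53+/+ levels lay between −4.29 and −3.63 while those of p53−/− cells were in the order of time. All 3 treated p53−/− arrays were above the treated p53+/+ arrays and the array labelled p53+/+ 0 h. On the p53+/+ 48 h and p53−/− 0 h arrays only 1 of its 2 spots was well above background. Its level there was above the lowest level well above background (−4.63 and −5.24), so the folds are those at its dim levels and are no lower limits. The level in p53−/− cells was 3.01-, 7.49- and 11.4-fold above their 0 h array at 12, 24 and 48 h. On that 0 h array the 2 spots differed by 0.67 on the log2 scale.

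Between genotypes, BMP4 was lower in p53+/+ cells by 1.45-fold at 12 h, 4.38-fold at 24 h and 8.66-fold at 48 h, the last taken at its dim level. The limma difference was −1.93 (standard error 0.49, adjusted p = 0.0403), lower at 3 of 3 times, and it passed the threshold in 8 of 11 alternatives. Among the 8 were the table of the whole series, which holds the same values, and 2 settings that left the estimate unchanged. These 2 were the mean of all probes and no filter on dim probes. The adjusted p was 0.265 without the 24 h arrays, 0.162 without the 48 h arrays and 0.074 with time as a block. The interaction was −2.53 (adjusted p = 0.259 in limma).

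BMP2, the second BMP ligand, read −1.43, −0.77 and −0.80 in treated p53+/+ cells and 0.16, −0.43 and −0.44 in treated p53−/− cells. The treated arrays of the genotypes did not overlap, but the limma difference of −0.76 (standard error 0.28, adjusted p = 0.108) missed the threshold and only the 12 h difference, −1.60, reached 2-fold. The array labelled p53+/+ 0 h read 0.41, 2.41-fold above the −0.86 of the p53−/− 0 h array. The change in p53+/+ cells was therefore −1.84, −1.18 and −1.21 from the former and −0.57, 0.09 and 0.06 from the latter. In p53−/− cells the change was 1.03, 0.43 and 0.42. The interaction was −2.03 (adjusted p = 0.135 in limma).

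INHBA encodes the beta A subunit of activin A, and FST encodes follistatin, a secreted protein that binds activin and blocks it. INHBA read 0.67, 2.11 and 3.97 in treated p53+/+ cells, in the order of time, and 2.01, 2.19 and 2.25 in treated p53−/− cells. The direct difference changed sign over time: p53+/+ cells were 2.52-fold lower at 12 h, within 1.06-fold at 24 h and 3.28-fold higher at 48 h. The limma mean over these times, 0.10 (standard error 0.76, adjusted p = 0.945), does not describe them. The array labelled p53+/+ 0 h read 3.50 and the p53−/− 0 h array 1.07, a gap of 5.42-fold, so the change in p53+/+ cells was −2.83, −1.39 and 0.46 from the first and −0.39, 1.05 and 2.90 from the second. At 24 h the choice of 0 h array turned its direction. In p53−/− cells INHBA changed by 0.94, 1.12 and 1.19. The rise between 12 and 48 h within p53+/+ cells needs no 0 h array, and its 48 h value comes from the array without spike-in signal.

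FST read −0.91, −0.70 and −1.26 in treated p53+/+ cells and −1.84, −0.93 and −0.71 in treated p53−/− cells. No treated time reached 2-fold between genotypes, and the limma difference was 0.21 (standard error 0.34, adjusted p = 0.715). The p53−/− levels were again in the order of time, 1.49-, 2.81- and 3.26-fold above the −2.42 of their 0 h array. The array labelled p53+/+ 0 h read −1.29. From it FST changed by 0.38, 0.59 and 0.03 in p53+/+ cells, all under 2-fold, and from the p53−/− 0 h array by 1.51, 1.72 and 1.16, all past 2-fold. The count of FST as unchanged or raised in p53+/+ cells by size thus depends on which 0 h array is used.

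TGFBR2, the type II receptor for TGF-beta, had a flat mean difference (limma −0.00, standard error 0.30, adjusted p = 0.993). It read 3.00, 3.20 and 3.95 in treated p53+/+ cells and 3.50, 3.56 and 3.10 in treated p53−/− cells, so the genotypes crossed between 24 and 48 h. No single time reached 2-fold. In p53−/− cells TGFBR2 was 1.81-, 1.73- and 2.38-fold below the 4.36 of their 0 h array. The array labelled p53+/+ 0 h read 3.19, 2.25-fold below that array. The change in p53+/+ cells was −0.19, 0.02 and 0.77 from the array labelled p53+/+ 0 h, and −1.36, −1.15 and −0.40 from the p53−/− 0 h array.

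SMAD7, an inhibitory SMAD that TGF-beta signalling induces and that blocks the receptor, read −0.43, −0.12 and −0.62 in treated p53+/+ cells and 0.81, 0.32 and 0.10 in treated p53−/− cells. All 3 treated p53+/+ arrays were below all 3 treated p53−/− arrays, and the 0 h arrays read 0.38 and 0.36. Only the 12 h difference, 2.36-fold, passed the size rule. The limma difference was −0.80 (standard error 0.25) with an adjusted p of 0.0759, just outside the threshold, and it passed in 3 of 12 alternatives, with a lowest adjusted p of 0.0146 without scaling.

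**Figure D2:**
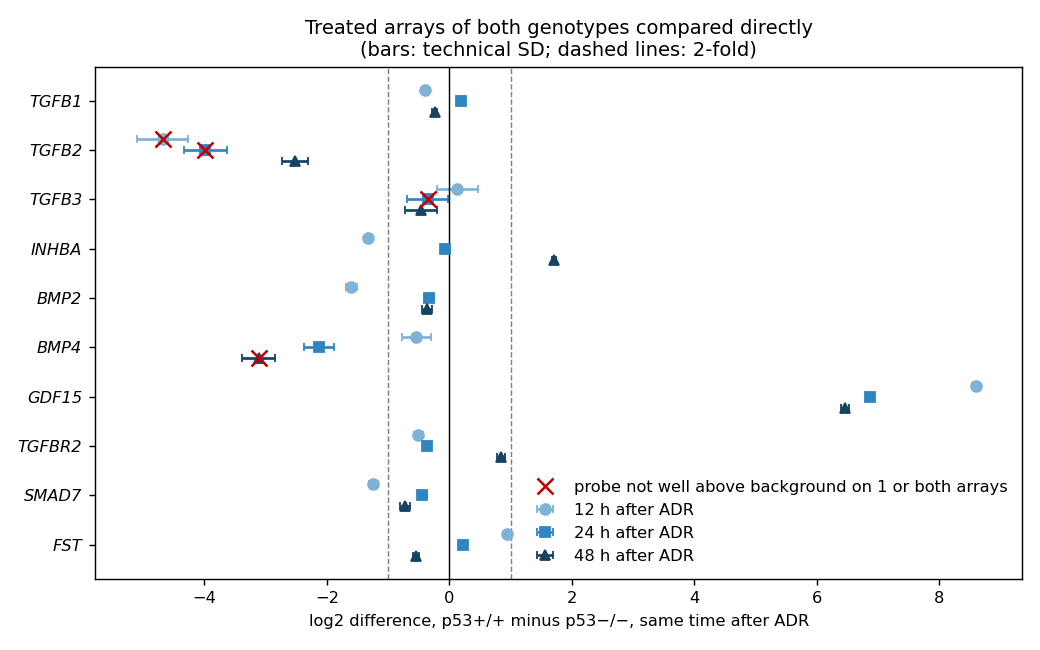
Log2 difference between p53+/+ and p53−/− arrays of the same time after ADR (horizontal axis) for each gene (vertical axis), with 1 point per time. Bars are the technical SD from probes printed in 10 spots, and dashed lines mark 2-fold. Red crosses mark differences in which the probe was not well above background on 1 of the arrays, whose place on the axis is not a measured fold (TGFB2 at 12 and 24 h, TGFB3 at 24 h and BMP4 at 48 h). GDF15 lies at 8.60, 6.87 and 6.47 and TGFB2 at −2.51 at 48 h, while INHBA goes from −1.34 to 1.71.

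By the 2-fold size rule, TGFB2 and GDF15 were the 2 of 10 genes that differed between genotypes in the same direction at all 3 treated times, where 10.3% of all probes did. Without the 12 h arrays the count was 3, with BMP4. At 12 h, 5 of 10 differed (20.6% of all probes), GDF15 higher and TGFB2, INHBA, BMP2 and SMAD7 lower in p53+/+ cells. At 24 h, 3 of 10 differed (24.9% of all probes), GDF15 higher and TGFB2 and BMP4 lower. At 48 h, 4 of 10 differed (29.8% of all probes), GDF15 and INHBA higher and TGFB2 and BMP4 lower. The 0 h arrays differed for 4 of 10 (10.1% of all probes), with INHBA, BMP2 and FST higher and TGFBR2 lower on the array labelled p53+/+ 0 h.

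Counted as changes from 0 h, 4, 4 and 3 of 10 genes passed 2-fold in p53+/+ cells at 12, 24 and 48 h, from the array labelled p53+/+ 0 h, beside 22.2, 27.7 and 29.0% of all probes. GDF15 rose, TGFB2 and BMP2 fell at all 3 times, and INHBA fell at 12 and 24 h. From the p53−/− 0 h array the counts were 5, 5 and 4, for which no share of all probes was computed. They included a rise of FST and no change past 2-fold for BMP2. They also held a fall of TGFBR2 at 12 and 24 h and rises of BMP4 at 12 h and of INHBA at 24 and 48 h. In p53−/− cells 3, 5 and 6 of 10 passed 2-fold, beside 9.91, 13.8 and 20.3% of all probes. Up at 48 h were TGFB3, INHBA, BMP4, FST and GDF15, and down was TGFBR2. The median change of the 10 genes in p53−/− cells was 0.59, 0.65 and 0.74, beside −0.06, −0.03 and −0.00 over all probes. These comparisons share 0 h arrays with each other.

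**Figure D3:**
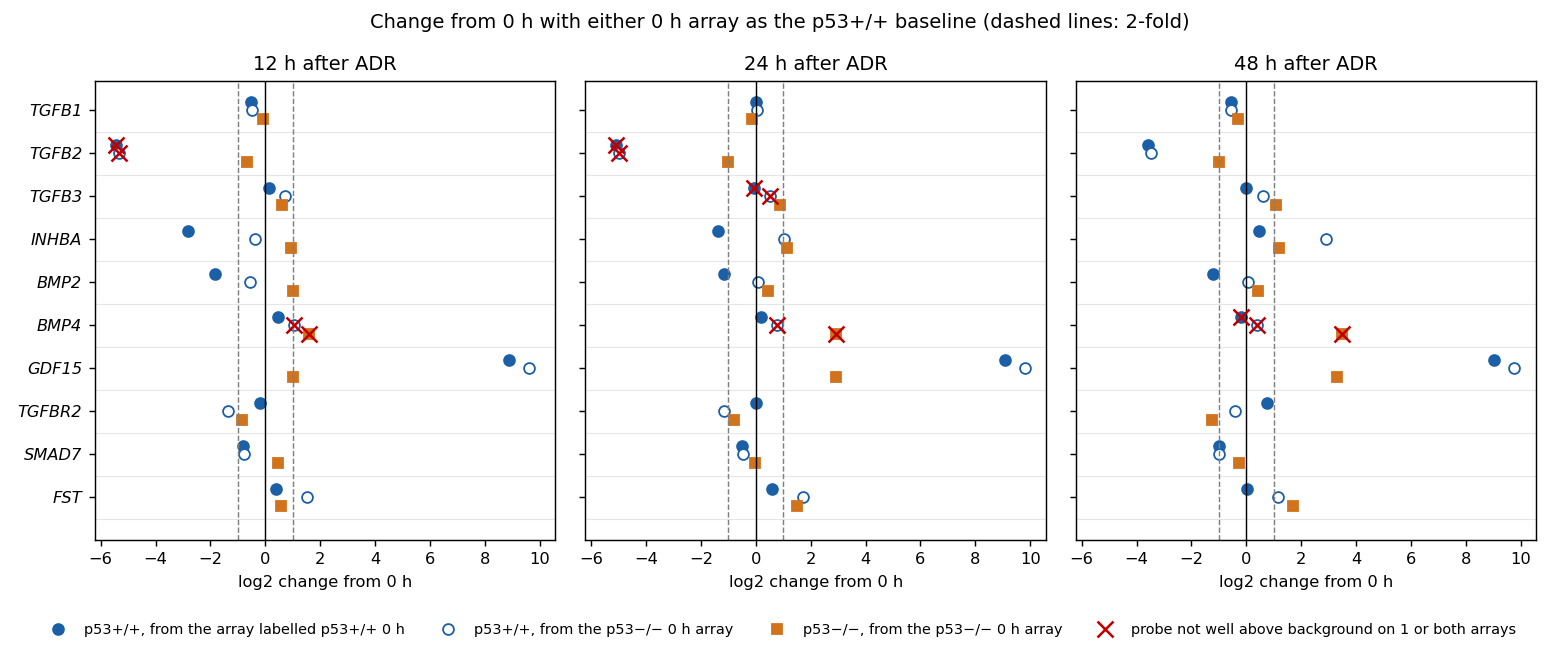
Log2 change from 0 h (horizontal axis) of each gene at 12, 24 and 48 h after ADR, 1 array per point. Filled blue points are p53+/+ cells measured from the array labelled p53+/+ 0 h, open blue points the same cells from the p53−/− 0 h array, and orange squares p53−/− cells. Red crosses mark changes in which the probe was not well above background on 1 or both arrays. The blue points of INHBA at 24 h, −1.39 and 1.05, lie on opposite sides of 0, while those of GDF15 and TGFB2 lie near each other.

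The wider pathway was described with a list of 88 other genes in 5 roles. Of these, 86 were matched to a probe, 69 were well above background on at least 1 array and were tested, and 48 were so on all 8. In the treated comparison 18 of 69 passed the limma threshold, 5 higher and 13 lower in p53+/+ cells, where 10.6% of all probes were higher and 7.40% lower. The 5 include BMP7, which entered the test only through the treated p53+/+ arrays, where it was high. The counts by role given below stand beside the same shares. The median difference was −0.15, beside 0.09 over all probes. A rule of size picked 10 genes from this list, those at least 2-fold different in 1 direction at all 3 treated times and passing the background criterion on the treated arrays of the higher genotype, 2 higher and 8 lower in p53+/+ cells. The 2-fold part of this rule alone held for 10.3% of all probes, whose split by direction was not computed. The other genes named below were named after their values were seen. The count of 18 was 11, 3 and 12 without the 12, 24 and 48 h arrays, and 28 without scaling, of which 26 were lower. The same fits called 9.22, 1.01 and 8.88% of all probes with these times left out. Without scaling 32.4% of all probes were called, and only 14.5% of those were higher. Of the 10 genes picked by the rule, BMP6, DCN and SMAD6 were called with each time left out, and the other 7 missed the threshold without the 24 h arrays, with adjusted p between 0.0516 and 0.153. The 8 further genes called missed it both without the 24 h arrays and without the 48 h arrays, and all but GREM1 also without the 12 h arrays. LTBP2 and SMAD5 missed it with median scaling, and SMAD5 with quantile normalization (limma adjusted p = 0.0680). Without scaling, LTBP2, NOG and SMAD5 missed it (limma adjusted p = 0.127, 0.106 and 0.897). GREM1 missed it with normexp and quantile normalization (0.0718), and BAMBI and SMAD5 with time as a block. SMAD5 was called in 5 of 12 alternatives.

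Of 22 other ligands, 13 were tested. BMP6 passed the threshold, lower in p53+/+ cells, and BMP7 was called higher. BMP7 read −4.20, −2.00 and −2.65 in treated p53+/+ cells and was well above background on no other array, so that it entered the test through the arrays where it was high. Over the treated means it was at least 6.27-fold higher in p53+/+ cells. No p is given for it, and its call is not read as a test result. BMP6 read −3.61, −3.49 and −3.60 against −1.12, −1.40 and −0.94, a difference of −2.41 (standard error 0.19, adjusted p = 0.000961).

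Of 17 other receptors and co-receptors, 13 were tested and 2 passed, both lower. BAMBI, a decoy receptor without a kinase domain, read 2.95, 2.81 and 2.50 against 3.36, 3.57 and 3.71 (adjusted p = 0.0422, and 0.0842 with time as a block). RGMB, a BMP co-receptor, differed by −0.98 (adjusted p = 0.0231) and was not well above background on the p53+/+ arrays of 24 and 48 h. The receptor genes TGFBR1, ACVR1, BMPR1A and BMPR2 did not pass, with differences of 0.53, 0.14, 0.20 and 0.80. GFRAL, the receptor of GDF15, was well above background on no array.

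All 13 SMADs and regulators were tested, and 3 passed. SMAD6, the inhibitory SMAD of the BMP branch, read −0.64, −0.32 and −0.60 in treated p53−/− cells and was not well above background on the 3 treated p53+/+ arrays, at least 17.3-fold lower there (adjusted p = 0.000124 in limma). The 0 h arrays labelled p53+/+ and p53−/− read −1.95 and −1.04. SKIL, a repressor of SMAD complexes, was lower by 1.01 on the log2 scale (estimate −1.01, adjusted p = 0.0170), and SMAD5, a BMP SMAD, was higher by 0.63 (adjusted p = 0.0499, and 0.0806 with time as a block). SMAD2, SMAD3 and SMAD4 differed by −0.02, −0.64 and −0.33 and did not pass.

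Of 22 extracellular carriers, activators and antagonists, 18 were tested and 8 passed, 3 higher and 5 lower in p53+/+ cells, where 18.0% of all probes passed. DCN encodes decorin, a matrix proteoglycan that binds TGF-beta. It read 2.09, 2.28 and 2.37 in treated p53+/+ cells against 5.70, 5.99 and 6.07, a difference of −3.67 (standard error 0.19, adjusted p = 0.000311), or 12.7-fold. THBS1, thrombospondin 1, which can activate latent TGF-beta, was 3.63-fold lower (adjusted p = 0.00203), and FSTL1, a follistatin-like protein, 2.59-fold lower (adjusted p = 0.00476). GREM1, a BMP antagonist, was also called lower (adjusted p = 0.0258) but was well above background on only 2 treated arrays. ITGB6, the beta 6 integrin subunit that activates latent TGF-beta, was 5.02-fold higher in p53+/+ cells (adjusted p = 0.00659), as were LTBP2, a latent TGF-beta binding protein family member, by 1.30 and NOG, the BMP antagonist noggin, by 1.09 on the log2 scale (adjusted p = 0.0280 and 0.0163).

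Of 14 genes commonly used as targets of TGF-beta or BMP, 12 were tested, and 3 passed, all lower in p53+/+ cells. ID2, an inhibitor of basic helix-loop-helix factors, read −0.22, −0.22 and −1.23 against 2.90, 3.42 and 3.41, or 14.0-fold lower (adjusted p = 0.00133). FN1, fibronectin, read −1.16, −2.09 and −2.43 against 1.42, 1.29 and 1.03, or 8.80-fold lower (adjusted p = 0.00284). SNAI2, a repressor of epithelial genes, differed by −0.92 (adjusted p = 0.0267). TGFBI, PMEPA1, ID1 and ID3, which also stand on this list, differed by 0.32, −0.82, −0.81 and −0.21 and did not pass. The median of the 12 was −0.81.

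Some markers of other cell types were lower in treated p53+/+ cells, as the matrix genes DCN and FN1 were, and others were not. Of 5 fibroblast markers, COL1A2 and COL3A1 were well above background on no array. LUM, COL1A1 and PDGFRB were lower in treated p53+/+ cells, on whose arrays they were not well above background, so no fold is given for them. PDGFRB met the background criterion on 3 arrays, all p53−/−, the genotype where it was high. The summed linear level of the 5 was 0.0554 to 0.0662 times the 75th percentile on treated p53+/+ arrays, 0.294 to 0.589 on treated p53−/− arrays, 0.543 on the array labelled p53+/+ 0 h and 0.742 on the p53−/− 0 h array. No fibroblast marker was well above background on a treated p53+/+ array, so the sum there is not a measured level. The summed basal epithelial markers were 496 to 573 on treated p53+/+ arrays and 224 to 252 on treated p53−/− arrays. The sum of 4 blood markers was 1.84 to 3.33 against 4.04 to 6.12, most of it CD14. PTPRC and CD3E differed by −0.01 and 0.05 on the log2 scale and did not pass the limma threshold. The endothelial sum was 0.160 to 0.212 against 0.330 to 0.473. Of its markers, PECAM1 differed by −3.54 and was not well above background on the treated p53+/+ arrays. CDH5 and VWF differed by 0.22 and −0.07 and did not pass. The part of these markers in the results was not tested.

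**Figure D4:**
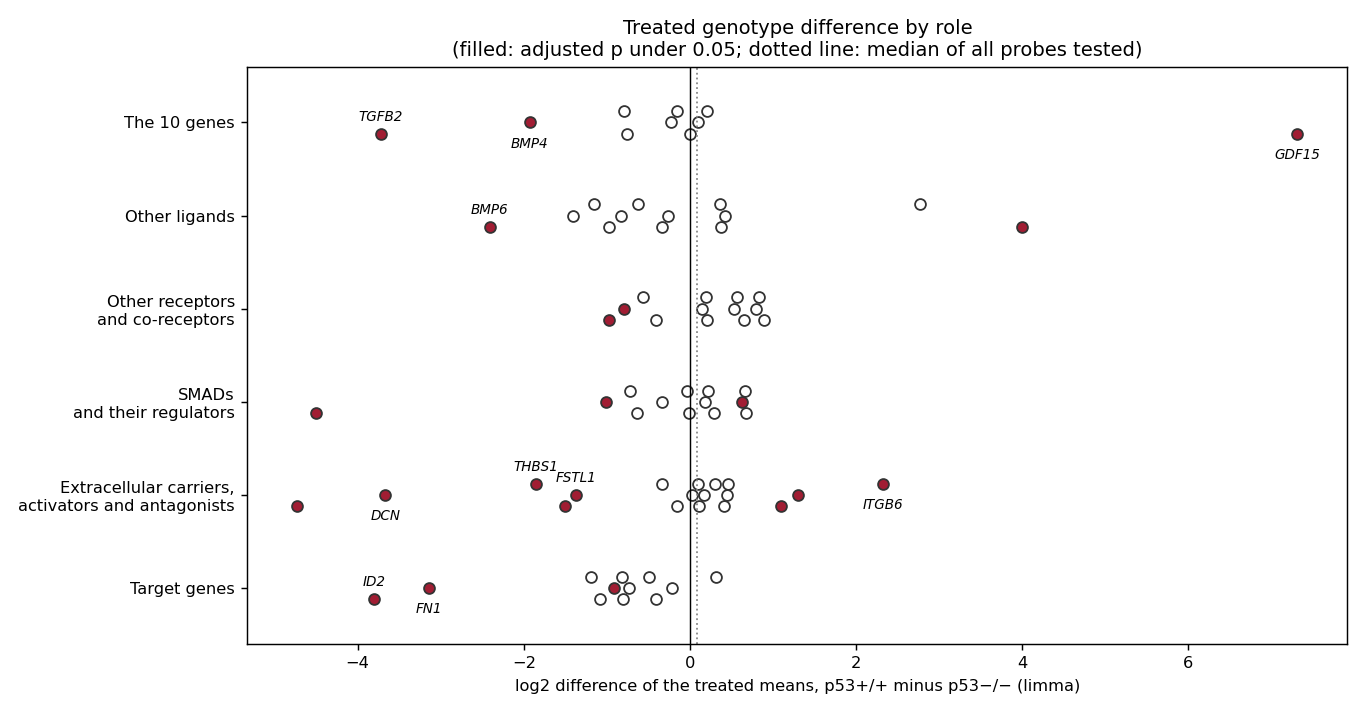
Limma log2 difference of treated means, p53+/+ minus p53−/− (horizontal axis), for the 10 genes and the tested genes of 5 roles (rows), 1 point per gene with a small vertical spread for legibility. Filled points passed an adjusted p of 0.05, and the dotted line is the median of all probes tested, 0.09. The filled ligand point on the higher side is BMP7, which entered the test through the arrays where it was high. GDF15 lies at 7.31 and SMAD6 at −4.50. Names are given for the called genes among the 10, and for those named by the rule of size that were measured in both genotypes.

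The interaction, which rests on the array labelled p53+/+ 0 h, was past the threshold for 6 of the 69 tested genes of the wider list, all lower in p53+/+ cells. They were BMP6 (−3.48), BAMBI (−2.89), SMAD6 (−3.59), GREM1 (−4.82), DCN (−3.57) and ID2 (−4.36), with adjusted p in limma between 0.0149 and 0.0359. For all probes 0.746% were lower in this test. With any 1 treated time left out, 0 of the 69 passed in limma (23, 16 and 22 at an unadjusted p under 0.05 without the 12, 24 and 48 h arrays), with adjusted p for these 6 between 0.0582 and 0.285.

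For the 3 genes with the widest range over the 8 arrays, the genes with the most similar pattern were taken by Pearson r over the 8 arrays, among 5263 genes. The 8 points share a genotype and time structure, and r is given as a description. GDF15 was closest to MZF1 (r = 0.996), INPP5D (0.996) and AP1S3 (0.996). INPP5D, a lipid phosphatase known from blood cells, read 4.40, 4.29 and 3.88 in treated p53+/+ cells and −6.63 on the array labelled p53+/+ 0 h. TGFB2 was closest to FOXF2 (0.994), STC2 (0.993) and IRS1 (0.990), and IRS1, an adaptor of insulin signalling, read −3.53, −3.18 and −2.00 in treated p53+/+ cells and between −1.17 and −0.19 on the other arrays. BMP4 was closest to OASL (0.981), SP5 (0.979) and NOTCH4 (0.968). OASL, an interferon-stimulated gene, read −1.88, −0.33 and 0.83 in treated p53−/− cells.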

How the data were processed

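Total RNA from both MCF10A genotypes, taken at 0, 12, 24 and 48 h, was hybridized to 8 single-colour Agilent arrays. The authors deposited the output of Agilent Feature Extraction 10.7.3.1 for each array, in which the processed signal is an intensity already corrected for background. The table of the whole series held equal values (503808 of 503808 within 1e-05). The paper names no normalization for these arrays.

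Outlier and control spots were left out, the log2 of each array's 75th percentile was subtracted from its log2 processed signals, and spots of a probe were averaged. A probe was well above background when the scanner software marked the majority of its spots so. Names came from the RefSeq accession (GRCh38.p14), 27227 of 42391 (64.2%), and a gene's value came from its brightest probe. The array files use hg19, so no probe coordinates are given. Promoter windows came from RefSeq.

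Differences were read by a 2-fold size rule, and tested over 28947 probes with limma 3.58.1 (lmFit and eBayes on 4 group means of genotype by treatment, 4 residual degrees of freedom, Benjamini-Hochberg). The technical SD came from 999 probes printed in 10 spots. The number of arrays limits the precision. The genes, the wider list and the tests were chosen with earlier results of these data known. Named were the 10 genes, CDKN1A and MDM2, up to 20 genes of the wider list by the size rule, and the 3 genes most correlated with each of the 3 genes of widest range, among genes well above background on at least 4 arrays with an SD of at least 0.5. MDM2 read 1.29, 1.49 and 1.76 on the treated p53+/+ arrays and −2.04 to −1.33 on the p53−/− arrays. On the array labelled p53+/+ 0 h it read −1.66, within the range of the p53−/− arrays. Some genes that these rules cover are not reported here. The fit was tested on data simulated with independent residuals, which cannot check the use of treated times in place of replicates. Alternatives were 4 scalings, filters on dim probes, the mean of all probes, time as a block, each treated time left out, a 3-fold rule and the other 0 h baseline. R 4.3.3, Python 3.11.15, numpy 2.4.6, pandas 2.3.3 and matplotlib 3.10.9 were used.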

Additional observations from a re-analysis of the deposited data

Results flagged for a closer look

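GDF15 differed between genotypes in its change after ADR by the test of the difference itself, with a limma interaction of 6.59 on the log2 scale and an adjusted p of 0.049996. The p53+/+ part of this value is measured from the array labelled p53+/+ 0 h, whose label is in doubt.

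BMP2 lay below its 0 h array on all 3 treated p53+/+ arrays and above it on all 3 treated p53−/− arrays, with mean changes of −1.41 and 0.62 and a difference of −2.03. It was picked by these opposite directions and not by a test, and the limma interaction did not pass the threshold (adjusted p = 0.135). From the p53−/− 0 h array the p53+/+ changes were −0.57, 0.09 and 0.06.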

How the results depend on the processing

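Among 910 values recomputed under the alternatives, the table of the whole series moved none, since it equals the scanner values. The median difference of all probes between genotypes lay between −0.02 and 0.18 over the treated times as scaled here and between −0.68 and −0.32 without scaling, and the mean of TGFBR2, INHBA and FST between genotypes kept its sign in 10, 9 and 10 of 12 alternatives. In the treated comparison the 3 genes called were 6 without scaling and 5 with normexp and quantile normalization, and 1 to 3 with a treated time left out. The 5201 probes called were 9393 without scaling, 12536 with no filter on dim probes and 292 to 2670 with a time left out, which leaves the fit fewer arrays. In the interaction the 1 gene called was 0 with quantile normalization, 2 without scaling, 3 with normexp and quantile normalization, 0 with no filter and 0 to 1 with a time left out, where limma gave 3 to 5 of the 10 genes an unadjusted p under 0.05 in the settings with a count of 0. The 488 probes called by limma were 1296 without scaling, 974 with normexp and quantile normalization and 0 to 42 with a time left out (3063 and 5274 probes at an unadjusted p under 0.05 without the 24 h and 48 h arrays). With the p53−/− 0 h array as baseline, INHBA at 24 h (1.05) and BMP2 at 24 h (0.0941) and 48 h (0.0613) in p53+/+ cells turned sign. TGFB2 and GDF15 passed the size rule at all treated times used in 10 of 10 alternatives, but some of these could not fail. The table of the whole series holds the same values, and the mean of all probes is unchanged because each gene had 1 probe. Leaving out a treated time can only relax a rule over all times. The alternatives that could have failed were the other scalings and the 3-fold rule. The cause of other moves was not tested. Time as a block was not run for the interaction, since the 0 h arrays have no treated partner of their time. Dim signal limits TGFB2, BMP4, TGFB3 and the SMAD6 and BMP7 bounds. The labels give no replicate numbers to pair; the genotypes were paired by time alone, with time as a block in the treated comparison (2 of the 10 genes called, without BMP4).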
